A study of Mus musculus with 20 samples.

Results

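The clustered protocadherin region was taken as all promoter windows of the deposited table on mouse chromosome 18 that start between 37.05 Mb and 38 Mb (build GRCm39). The position rule found 88 windows of 3500 bp out of 54034 in the table. It uses coordinates and no measured value. Methylation had been measured by bisulfite sequencing of the DNA of single mouse blastocysts, the embryo stage just before implantation, after the polyadenylated RNA of each embryo had been removed on beads. There were 10 embryos with the genotype label Control (embryos 1 to 10) and 10 labelled Padi6-mutant (embryos 11 to 20), and the design text ties the mutant group to oocytes carrying the Padi6 P620A change. PADI6 is stored in the egg as a member of the subcortical maternal complex and passes from there into the early embryo. The labels give no strain, sex, mother or litter, so embryos may share a mother and the p-values below cover only the spread among the embryos at hand. A blastocyst holds inner cell mass and trophectoderm together, and each value is a mix of both. The labels' growth protocol describes outgrowth culture of blastocysts, and whether the sequenced embryos went through it is not given in the sources used here.

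Clustered protocadherins are cell-surface adhesion proteins that give neurons their individual identity. In the alpha and gamma clusters each variable exon has its own promoter and is spliced to constant exons shared by the cluster, whereas the beta genes are single-exon genes without shared constant exons. Neurons switch on a small, largely random choice of the variable promoters, and the other promoters of the array are held silent with DNA methylation, which is laid down in early development with DNMT3B as a main writer. CTCF, which brings chosen promoters to distant enhancers, binds sites in these promoters whose methylation weakens its binding. A blastocyst holds no neurons.

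In the RefSeq gene table of build GRCm38.p6, the array runs from 14 Pcdha genes (Pcdha1 to Pcdhac2) through 22 Pcdhb genes (Pcdhb1 to Pcdhb22) to 22 Pcdhg genes (Pcdhga1 to Pcdhgc5). Another 12 genes lie between the first and the last of the 58, among them Slc25a2, a mitochondrial carrier, and Taf7, a general transcription factor subunit. The windows carry no gene names and the builds differ, so no window was tied to a gene. They were instead split at the 2 widest spacings between neighbouring windows, 101.04 kb and 83.7 kb, into an alpha-side stretch of 27 windows, a beta-side stretch of 25 and a gamma-side stretch of 36. In the gene table the widest spacing between neighbouring gene starts lies between Pcdhac2 and Pcdhb1, and the next between Pcdhb22 and Slc25a2. Among the windows the order is reversed, with 83.7 kb after the alpha-side stretch and 101.04 kb after the beta-side one. The gamma-side stretch may thus also hold windows of genes that are not protocadherins, such as Slc25a2 and Taf7. The alpha-side stretch spans positions 37050449 to 37314771, the beta-side stretch 37394991 to 37651423 and the gamma-side stretch 37748959 to 37990713. Of the 88 windows, 18 overlap the window before them and 1 repeats its values exactly.

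Coverage of the region was thin in most embryos. Among the 6 densely covered control embryos (1 to 5 and 10), 58 to 79 of the 88 windows had a value, and among the 3 densely covered mutant embryos (11, 12 and 14), 64 to 73. The 4 sparsely covered controls had 7 to 30 and the 7 sparsely covered mutants 5 to 25. Dense here means a value in at least 25000 windows of the table. Read depth is unknown, so no counting interval can be given, and a single value of 0%, 50% or 100% can be a coarse step. A value of 0% made up 52.2% of the 519 control values in the region and 60.0% of the 310 mutant values, against 44.9% and 54.5% of all values in the table.

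Most windows of the region carried little methylation in control blastocysts. Over the 86 windows read in at least 3 control embryos, the window means had a mean of 10.1% and a median of 6.25% (quartiles 3.09% and 13.6%), and the highest was 46.4%. Over all 49112 other windows read that often the mean was 15.8% and the median 11.1%, and over the 1269 on the rest of chromosome 18 they were 15.1% and 10.4%. In the region 33 of 86 windows (38.4%) lay under 5%, 41 (47.7%) from 5% to 20%, 12 (13.95%) from 20% to 50% and 0 at 50% or more. Among all other windows these shares were 29.1%, 40.3%, 26.8% and 3.79%. With densely covered controls alone, 86 windows of the region had a mean of 10.2%, beside 15.2% for the other windows. In 9 of 10 control embryos the plain mean over the region was below the mean of the same embryo over all windows (10.2% against 15.4% on average), and in 9 of 10 mutant embryos as well (7.98% against 12.9%). These levels are descriptions without a test.

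Along the array the control level was uneven and changed from window to window rather than in one direction. The 21 windows in the first 100 kb averaged 13.5% (0% to 37.5%). From 400 to 500 kb, within the beta-side stretch, 5 windows averaged 2.63% (0% to 6.25%). From 700 to 800 kb 16 windows averaged 10.8% and from 800 to 900 kb 15 averaged 5.46% (0.386% to 10.5%), both within the gamma-side stretch. The last 3 windows averaged 30.8%, the highest of the 10 steps of 100 kb. By stretch, the mean of window means was 12.6% on the alpha side (27 windows, median 9.95%), 7.37% on the beta side (24 windows, median 5.35%) and 10.1% on the gamma side (35 windows, median 6.19%).

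**Figure D1:**
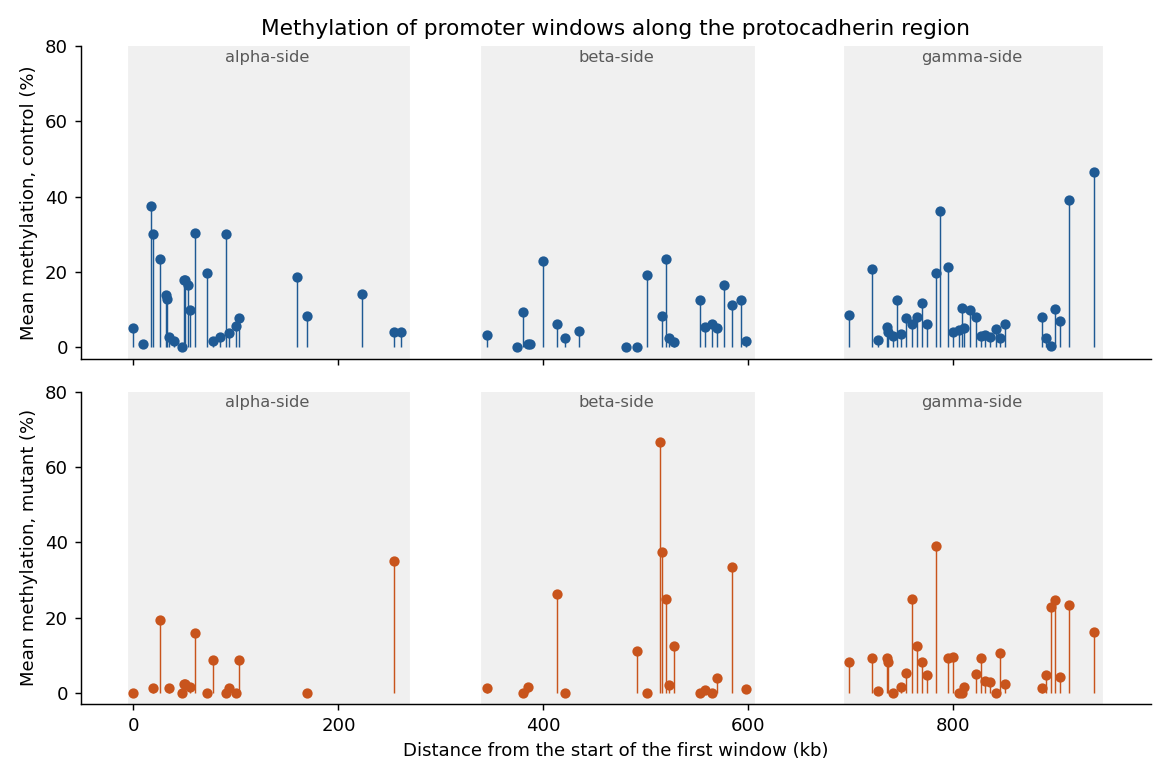
Mean methylation in percent of each window read in at least 3 embryos of the group (upper panel control, lower panel mutant) against the distance in kb from the start of the first window; shaded bands are the alpha-side, beta-side and gamma-side stretches. Control means reach 46.4% at the last window, and the tallest mutant point (66.7%) rests on 3 embryos.

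The window with the highest control mean was the last of the region, 37987214 to 37990713. Its 7 control values were 50% in embryos 2, 3 and 10, 33.3% in embryo 4, 16.7% in embryo 5, 25% in embryo 8 and 100% in embryo 9. Every control embryo read there was thus above 0%. Just before it, the window from 37962754 to 37966253 stood at 33.3%, 66.7%, 75%, 20% and 0% in control embryos 1, 2, 4, 5 and 10, a mean of 39.0% ± 31.5 (SD, n = 5). The window from 37837092 to 37840591, in the middle of the gamma-side stretch, held 44.4%, 100%, 0%, 8.33% and 28.6% in control embryos 1 to 5 (36.3% ± 39.6, SD, n = 5). Between control embryos the first of these 2 windows ran from 0% to 75% and the second from 0% to 100%.

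On the alpha side, the window from 37110110 to 37113609 was above 0% in every control read, with values from 13.6% to 50% (median 28.1%, mean 30.4% ± 15.6, SD, n = 6). The window from 37069258 to 37072757 had almost the same mean (30% ± 44.7, SD, n = 5), made of 100% in embryo 1, 50% in embryo 3 and 0% in embryos 2, 5 and 10. Nearly equal means thus came from values above 0% in all 6 embryos in one window, and from values at 0% in 3 of 5 embryos in the other.

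At the low end, the beta-side window from 37541717 to 37545216 was 0% in all 5 control embryos read. The window from 37945132 to 37948631, on the gamma side, was 0% in 6 of 7 controls and 2.70% in embryo 4. The beta-side window from 37437508 to 37441007 was 0% in 5 of 6 and 4.55% in embryo 2. In all, 4 of the 86 windows (4.65%, beside 4.08% of the other windows) were at 0% in every control embryo read. The other 3 of these, each read in 3 or 4 controls, start at 37097684, 37424865 and 37530908 and were named after their values were seen.

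Of the 88 windows, 37 were read in all 6 densely covered controls. Of these 37 windows 0 were at 0% in all 6 embryos, and 9 stayed under 10% in all 6. Only the window from 37570101 to 37573600, on the beta side, was at 10% or more in at least 4 of the 6 (named after its values were seen). Its values in control embryos 1 to 5 and 10 were 40.9%, 12.5%, 47.8%, 18.2%, 4.76% and 16.7%. A value of 50% or more occurred at 6 of the 37 windows, and at 4 of these 6 in a single embryo. High values in control embryos were thus mostly not shared between embryos at these windows. They were also rarer here: 6.82% of the 440 values of densely covered controls were at 50% or more, beside 12.1% in the other windows. How often other windows share high values was not counted. Across the region's windows (50 to 72 shared windows a pair) the Pearson correlation between densely covered controls averaged 0.19 over 15 pairs (-0.15 to 0.52), beside 0.33 (0.27 to 0.37) across the other windows of the table. All pairs share embryos, and the values are coarse.

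Mutant and control embryos were then compared, to ask whether an egg with the mutant protein gives blastocysts with another level of methylation along the array. Over the whole region control embryos had a level of 9.65% ± 2.69 (SD, n = 10) and mutant embryos one of 7.64% ± 2.83 (SD, n = 10). The level is built from the 66 windows read in 3 or more embryos of both groups, as the mean deviation from the window's mid-level with the overall mean added back, which lessens the weight of which windows an embryo happened to give. Control embryos ran from 4.25% (embryo 7) through a median of 9.65% to 12.6% (embryo 8), and mutant embryos from 2.22% (embryo 20, 5 windows read) through a median of 7.27% to 10.98% (embryo 14). The groups overlapped over most of their range, with 6 of 10 mutant embryos below the control mean and 1 below the lowest control. The difference of -2.01 points was smaller than the SD of either group. Among densely covered embryos it was -1.84 points (6 against 3) and among sparsely covered ones -2.13 points (4 against 7). With the level rebuilt from densely covered embryos only, on 49 windows, it was -2.46 points.

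The genome was also laid out in 614 tiles of 1 Mb, on a grid that starts at the first base of each chromosome, and tested tile by tile with limma. The tile from 37000001 to 38000000 holds all 88 windows of the region and no others, so it gives the region's own values. It differed by -2.01 points (SE 1.96, limma adjusted p = 0.743 over all tiles). In this fit 2 of 614 tiles passed (0.326%) and 54 (8.79%) had an unadjusted p under 0.05. Of the 614 tiles, 71.5% had a lower mutant level. The median difference over all tiles was -1.95 points, and 303 of the 614 had a lower difference than this tile. Its control level was lower than that of 567 of the 614 tiles (92.3%), whose median was 13.9%. The region thus stood low in its level and in the middle of the tiles in its difference.

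**Figure D2:**
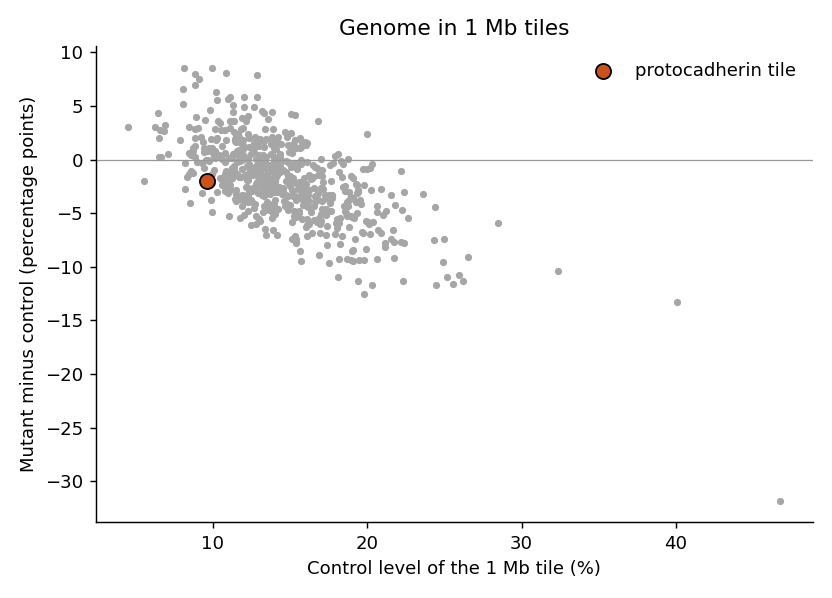
Each grey point is a 1 Mb tile of the genome, with its mean control level in percent on the x axis and mutant minus control in percentage points on the y axis; the marked point is the tile of the region. It sits at 9.65% and -2.01 points, among tiles of low level and near the median difference of -1.95 points; both axes use the control values, so the slope of the cloud is partly built in.

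The level was also taken over each stretch by itself. On the alpha side, 7 embryos per group had at least 5 windows read. Their control levels were 17.4%, 11.03%, 12.4%, 17.7%, 12.8%, 20.6% and 5.81% (embryos 1 to 5, 8 and 10), a mean of 13.96% ± 4.97 (SD, n = 7). The mutant levels were 9.98%, 5.08%, 7.47%, 6.01%, -1.54%, 3.53% and 0.937% (embryos 11 to 16 and 19), a mean of 4.49% ± 3.91 (SD, n = 7). A level built from deviations can fall slightly below 0. The control mean was above every one of the 7 mutant embryos, and 4 of them were also under the lowest control, embryo 10. The difference was -9.47 points (SE 2.39), larger than the SD of either group. Coverage was uneven: 6 of the 7 controls were densely covered, against 3 of the 7 mutants, and 1 of those 3 was under the lowest control. The windows starting at 37099969 and 37100702 hold identical values and were both counted (-15.5 points each). Mutants 13 and 16 reached the minimum of 5 windows only through that repeat. Embryo 16 is 1 of the 4 mutants under the lowest control. A plain mean over the windows read took in control 7, at 0%, and put 0 of the 7 mutants below the lowest control. By that measure the difference was -7.70 points (8 against 7).

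That alpha-side difference is a description with no test, since the split was made with results known. Tiles of 250 kb, added after the data were examined, left too few embryos on the alpha side to be fitted there. In the gamma-side tile from 37750001 to 38000000, the one tile of that size that could be fitted in the region, the difference was -0.94 points (SE 2.64, adjusted p = 0.906 by limma, with 0.446% of 224 such tiles called). With windows that do not overlap, where the first of overlapping windows was kept whatever its coverage, the difference was -3.15 points. That setting changed both the windows, from 17 to 10, and the mutant embryos, from 7 to 3, and their parts in the drop cannot be told apart. With windows read in at least 5 embryos per group, which also left 3 mutant embryos, it was -6.72 points. Among densely covered embryos, with the level built as before on all embryos, it was -5.84 points (12.9% against 7.02%, 6 against 3). Rebuilt from densely covered embryos only, on 11 windows, it was -7.04 points (11.8% against 4.76%).

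On the beta side 7 control and 4 mutant embryos could be read. Their levels were 7.75% ± 4.65 (SD, n = 7) and 7.80% ± 2.36 (SD, n = 4), a difference of 0.05 points (SE 2.12). The control embryos ran from 0.819% (embryo 8) to 14.6% (embryo 10), and all 4 mutant embryos, from 5.73% to 10.2%, fell inside that range. On the gamma side the levels were 9.16% ± 2.62 (SD, n = 9) and 8.34% ± 6.31 (SD, n = 8), a difference of -0.82 points (SE 2.40). There the mutant embryos reached both below and above the controls. Embryo 13 stood at 0.0131%, embryo 18 at 3.54%, embryos 14, 15 and 19 at 14.04%, 17.2% and 15.3%, while the controls kept between 4.27% and 11.9%. Whether the 3 stretches differ from one another was not tested.

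**Figure D3:**
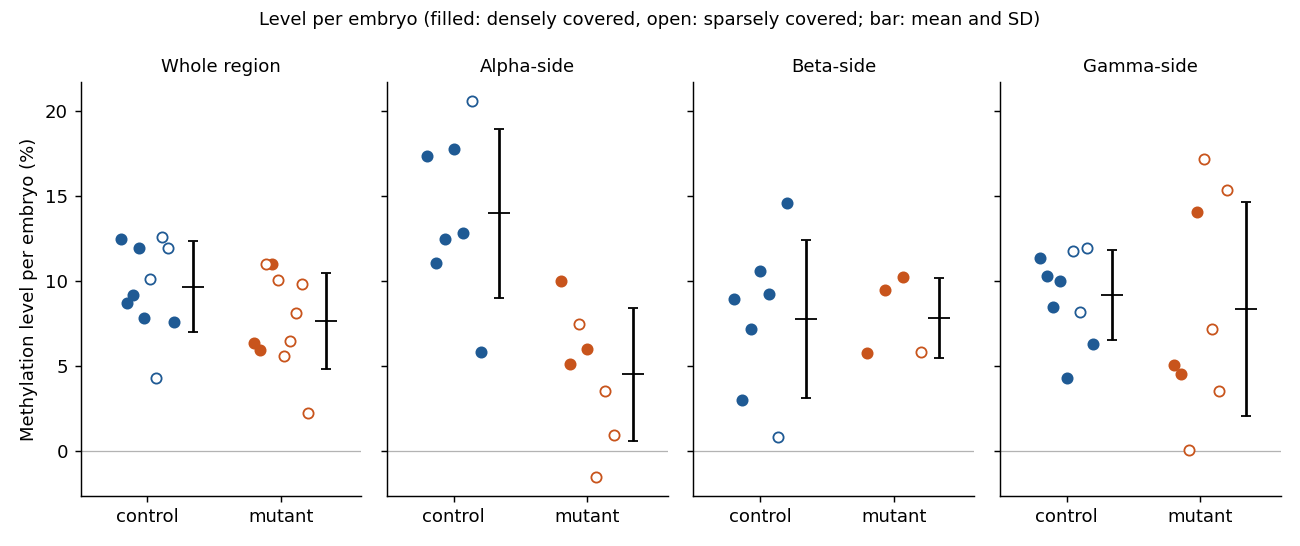
Methylation level in percent of each embryo over the whole region and over the alpha-side, beta-side and gamma-side stretches (x axis: group); filled points are densely covered embryos, open points sparsely covered ones, and the bar gives the mean and SD. On the alpha side all 7 mutant embryos lie below the control mean of 13.96%, and on the gamma side 3 mutant embryos lie above all controls.

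Window by window, no difference in the region passed the test. Where 7 or more embryos per group were read, 0 of 2 windows of the region passed in limma (0.185% of all 1620 windows passed), 1 had an unadjusted p under 0.05 with a lower mutant mean (4.81% of all windows did), and 0 had one with a higher mean (0.864%). The exact rank-sum test called 0 of all 1620 windows (0%), with 1 of the 2 at an unadjusted p under 0.05, beside 7.53% of all windows. In the fit with at least 3 embryos per group, 0 of 66 passed (0.0372% of 37645), with adjusted p from 0.663 to 1. The exact rank-sum test called 0 of all 37645 windows (0%), the 66 included. Its lowest possible p is set by the number of embryos, and with 3 per group it cannot fall under 0.05. After correction over 37645 windows a call was thus hardly possible, and the 0 calls carry little weight. The rank-sum test left 4 of the 66 at an unadjusted p under 0.05, beside 4.64% of all windows. In limma 2 of the 66 windows had an unadjusted p under 0.05 with a lower mutant mean (3.9% of all windows) and 1 with a higher one (1.85%). The other 22 windows of the 88 had too few values for either fit, 3 of them with 0 mutant values.

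The mutant mean was lower at 44 of the 66 windows (66.7%, beside 55.8% of all windows), higher at 21 (31.8%, beside 43.5%) and equal at 1. The median difference was -2.15 points, beside -1.07 points over all windows tested. A mutant mean lower by 20 points or more was seen at 3 windows (4.55%, beside 9.9%) and one higher by that much at 4 (6.06%, beside 5.2%). On the alpha side 13 of 17 windows were lower and 3 higher (median -5.56 points), on the beta side 10 and 7 of 17 (median -0.63 points), and on the gamma side 21 and 11 of 32 (median -1.64 points).

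**Figure D4:**
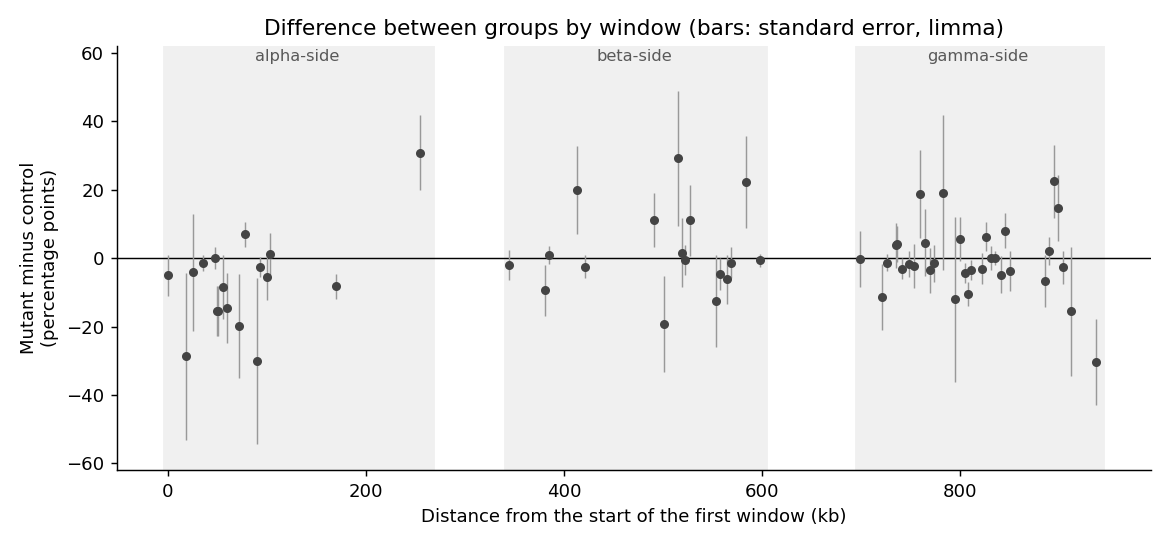
Mutant minus control in percentage points for the 66 windows with at least 3 values per group, with the standard error from limma, against the distance in kb from the first window. Points run from -30.3 to 30.8, and no window passed the adjusted threshold.

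The largest of the lower means was at the last window, 37987214 to 37990713, which was also the most methylated one in controls. Its mutant values were 22.2% in embryo 11, 40.7% in embryo 14, 50% in embryo 15 and 0% in embryos 12, 13, 17 and 18. The control values, from 16.7% to 100% (median 50%), overlapped with the 3 mutant embryos above 0%. The mutant mean of 16.1% ± 21.7 (SD, n = 7) was below the control mean of 46.4% ± 27.2 (SD, n = 7). The difference was -30.3 points (SE 12.5, adjusted p = 0.686 by limma in the fit with at least 7 per group). In densely covered embryos it was -19.0 points. In the gene table Diaph1, a formin gene, comes next after the Pcdhg genes, and no gene was assigned to this window. The first window outside on that side, 38049871 to 38053370, had a control mean of 29.2% (n = 5) and 50% in the 1 mutant embryo read. The first outside on the other side, 36940944 to 36944443, had 55.6% in controls (n = 4) and 13.1% in mutants (n = 3), whereas the first window inside, 37050449 to 37053948, had 5% (n = 4) and 0% (n = 3).

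The next 3 lower means among the 66 windows lay on the alpha side, and each came from a few embryos. At 37140765 to 37144264 controls 3 and 5 stood at 50% and 100%, controls 1, 7 and 10 at 0%, and mutants 12, 14 and 15 at 0% (-30 points, SE 24.3, limma adjusted p = 0.834, and -12.5 points without control 5). At 37069258 to 37072757, with its wide spread between controls, mutants 11, 12 and 14 stood at 3.85%, 0% and 0% (-28.7 points, SE 24.3, limma adjusted p = 0.834, and -11.2 points without control 1). At 37122424 to 37125923 the controls ran from 0% to 66.7% (median 5.56%, n = 7) and mutants 11, 14 and 18 were at 0% (-19.8 points, SE 15.3, and -12.04 points without control 1). The standard errors there are nearly as large as the differences, and in each case a control embryo shared the mutant value of 0%. The beta-side window from 37551471 to 37554970 followed with 37.5%, 37.5% and 60% in controls 1, 3 and 4, 0% in controls 2, 5, 7 and 8, and 0% in mutants 11, 12 and 14 (-19.3 points, SE 14.1, and -12.5 points without control 4). At the alpha-side window from 37110110 to 37113609, mutants 11, 12, 14, 15 and 19 held 50%, 16.7%, 12.5%, 0% and 0% (-14.6 points, SE 10.3, limma adjusted p = 0.834), so 1 of 5 reached the top of the control range. That difference was -6.78 points in densely covered embryos and -23.1 points without mutant 11.

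A single window of the 66 separated the groups completely with controls above (1.02% of all windows tested did so), and 0 did so with controls below (0.327%). It lies on the gamma side at 37858675 to 37862174 and was named after its values were seen. Its control values were 8.33%, 25%, 13.3%, 3.33%, 2.44%, 12.5% and 8.70% in embryos 1 to 5, 8 and 10. All 5 mutants read there (11, 12, 14, 18 and 19) were at 0%. The difference of -10.5 points (SE 3.63) had an unadjusted limma p of 0.0141 and failed the correction (limma adjusted p = 0.663). The windows that overlap it on either side did not separate the groups. At 37855759 to 37859258 controls ran from 0% to 12.5%, with all mutants read at 0%. At 37861062 to 37864561 controls ran from 0% to 10.5%, and mutant 18 stood at 8.33%.

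The 5 largest of the higher means among the 66 windows were spread over all 3 stretches. At the alpha-side window from 37305118 to 37308617, controls 2 and 5 held 8.33% and 12.5%, controls 3, 4 and 10 held 0%, and mutants 12, 13 and 14 held 9.09%, 33.3% and 62.5%. Its difference of 30.8 points (SE 10.99) had an unadjusted limma p of 0.0253 and an adjusted p of 0.756. Of the 17 alpha-side windows tested, it is 1 of the 3 with a higher mutant mean. At the beta-side window from 37565674 to 37569173, mutants 11, 12, 13 and 19 held 0%, 50%, 100% and 0%, while the 5 controls stayed between 0% and 16.7% (29.2 points, SE 19.8). Without mutant 13 it was 8.33 points. The overlapping window before it, 37564296 to 37567795, was read in 2 controls only and held 50%, 100% and 50% in mutants 12, 13 and 14. Their mean of 66.7% was the highest mutant mean of the region among windows with at least 3 mutant values (named after its values were seen).

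The gamma-side window from 37945132 to 37948631, nearly unmethylated in controls, held 5.56%, 25%, 8.33%, 75% and 0% in mutants 12, 14, 15, 19 and 20. The control mean was 0.386% ± 1.02 (SD, n = 7) and the mutant mean 22.8% ± 30.6 (SD, n = 5), higher by 22.4 points (SE 10.8, limma adjusted p = 0.834). Without mutant 19 the difference was 9.34 points. The beta-side windows from 37634317 to 37637816 and from 37463974 to 37467473 differed by 22.2 points (SE 13.5) and 19.9 points (SE 12.95). At the first, mutants 13 and 14 stood at 50% and mutant 15 at 0%, and control 10 stood at 50% as well. At the second, mutants 11, 12 and 14 held 28.6%, 50% and 0%, and control 5 held 25%.

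The window read in most embryos, 37153233 to 37156732 on the alpha side, had 9 control values from 0% to 21.4% (median 6.45%) and 8 mutant values from 0% to 50% (median 0.581%). Control and mutant means of 7.69% ± 7.26 (SD, n = 9) and 8.83% ± 17.2 (SD, n = 8) were 1.13 points apart (SE 6.07, limma adjusted p = 0.955 in the fit with at least 7 per group). The mutant mean was carried by embryo 18 at 50%, and without that embryo the difference was -4.75 points. The beta-side window from 37570101 to 37573600, methylated in most densely covered controls, was close in both groups: 23.5% ± 16.98 (SD, n = 6) and 25% ± 18.2 (SD, n = 5). Its mutant values were 31.2%, 18.8%, 0%, 25% and 50% in embryos 11, 12, 14, 16 and 19.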

How the data were processed

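Reads from single-embryo bisulfite libraries were processed with Trim Galore 0.4.4 and Bismark 0.18.2 against GRCm39 (per the submitters' processing notes). What the authors deposited is a methylation level in percent for each promoter window and embryo, without read counts. The sources used here give neither how calls were combined nor a coverage minimum. From the 54080 rows, 46 exact repeats were dropped. Whole numbers above 100 (1594 in the table, 2 in the region) were taken as percents written without their decimal point, and were scaled down by 1000. Windows were tested with limma 3.58.1 in R 4.3.3 on untransformed percent, two-sided, with Benjamini-Hochberg adjustment over all windows tested (threshold 0.05), once with at least 7 and once with at least 3 values per group. Standard errors of windows come from the fit with at least 3 unless stated, and embryos with no value at a window are left out there. Tiles needed 10 usable windows, 5 windows read per embryo and 7 embryos per group. The fits were tried on values shuffled among embryos, with mutant values raised at some windows and tiles. How many of the raised ones were recovered is not given here. Lowered mutant values were not tried, so the size of decrease the fits could find was not tested. The named windows are those in the stricter fit, the 5 highest and 3 lowest control means (at least 5 values) and the 5 largest differences each way. Those differences were ranked among windows with at least 3 values per group. The members, lists and comparisons were chosen with earlier results of these data known.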

Additional observations from a re-analysis of the deposited data

Results flagged for a closer look

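In 29 groups of 4 to 10 values (the region and its stretches by group, and the named windows by group), 5 held a single embryo far from the rest. For values free to vary chance gives about 1 in 20 groups, a rate that holds poorly for windows with many zeros. At 37153233 mutant embryo 18 stood at 50%, with the next mutant at 11.1%. At 37987214 control embryo 9 stood at 100%, with the next at 50%. At 37437508 control embryo 2 stood at 4.55%, at 37463974 control embryo 5 at 25% and at 37945132 control embryo 4 at 2.70%, each with all other controls at 0%, where any single value above 0% would have been picked out whatever its size. Mutant embryo 18 and control embryo 9 were sparsely covered, with 9 and 7 windows of the region read. The part of coverage in these values was not tested. The levels of the whole region and of the 3 stretches held 0 such embryos.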

How the results depend on the processing

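No paired analysis was possible because the labels give no mother or litter by which embryos could be matched. The replicate numbers, 1 to 10 for controls and 11 to 20 for mutants, do not show whether embryos were matched. The stretches, their alternatives, those of named windows, and 250 kb tiles were added after seeing the data. In both window fits 0 windows of the region passed under each alternative run and with each single embryo left out. Among these runs, the exact rank-sum test with at least 3 per group could hardly have called a window. In the fit with at least 7 per group, most runs without an embryo could test only 1 window of the region. The outcome of those runs was thus largely set by the minimum of values. The tile kept its direction and failed the threshold in all 24 alternatives (4 other settings and 20 single embryos left out). The region's difference ran from -3.20 to -0.32 points with single embryos left out, and from -2.46 to -1.45 under the other 5 alternatives. It moved by over 1.5 times without mutant 11 (-0.32), 12 (-0.78), 14 (-0.98), 13 (-3.20) or 15 (-3.09); without 11, 12 or 14 only 46, 42 and 41 windows kept 3 mutant values. The alpha-side difference was -3.15 with windows that do not overlap and -11.6 to -7.78 with single embryos left out. The beta-side and gamma-side differences crossed 0 when single embryos were left out (-1.33 to 4.63 and -2.14 to 0.57 points). The median in place of the mean put the control level at 6.25%. The window at 37153233 turned to -4.80 points in densely covered embryos and to -4.75 without mutant 18 (up to 2.85 without other embryos). Sparsely covered embryos fitted alone gave no tile or region value, since no window set met the minimum of values.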
